A study of Mus musculus with 5 samples.

Results

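A set of 7 genes of naive and recirculating T cells was followed: Klf2, S1pr1, Tcf7, Lef1, Il7r, Bach2 and Igfbp4. They are 7 of the 18767 genes in the deposited table of transcript counts from CD45+ cells sorted from mouse thyroids, and each was taken by its symbol. The table holds 10275 cells, which the authors placed in 17 clusters. Both a treated and a control group of wild-type NOD mice, an inbred strain prone to autoimmunity, were sampled. The ICI group (immune checkpoint inhibition) had received anti-PD-1 (clone RPM1-14) with anti-CTLA-4 (clone 9D9), and the isotype group control antibodies. Doses were 10 mg/kg, given into the peritoneum every week in 2 injections over 4 weeks. Treatment of both groups began at an age of 4 to 6 weeks, in males and females. The ICI libraries, here ICI 1 to ICI 4, came from 16 pooled mice and the single isotype library from 10 pooled mice. The labels do not give the number of mice in each library, so p-values measure the spread between libraries of pooled mice.

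Naive T cells circulate between blood and lymphoid organs. They enter lymph nodes with the help of the chemokine receptor Ccr7 and leave along a gradient of sphingosine 1-phosphate, which the receptor S1pr1 senses. The transcription factor Klf2 switches on S1pr1, and its own transcription depends on the FOXO factor Foxo1. Tcf7 encodes TCF1, which with its relative Lef1 directs T cell development in the thymus and keeps naive and memory cells able to renew. Il7r encodes the interleukin 7 receptor chain that gives resting T cells a survival signal and that innate-like lymphocytes also use. Bach2 represses effector genes by competing with AP-1 factors, and Igfbp4 encodes a secreted protein that binds insulin-like growth factors. In a non-lymphoid organ such as the thyroid most of these genes are read as marks of lymphocytes that have not taken on an effector or resident state.

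Depth differed between libraries, and ICI 2 and ICI 3 were not independent by their barcodes. The libraries held 1163 to 5018 cells, with total depths of 3858251 to 32296759 UMIs (unique molecular identifiers, each standing for a captured transcript) and median depths of 1753 to 4321 UMIs per cell. ICI 2 and ICI 3 shared 140 cell barcodes, of which 109 lay in the same cluster, while other pairs shared at most 12 and none in the same cluster. A chi-square over genes gave 3.05 per degree of freedom for ICI 2 against ICI 3 and 31.2 to 140.4 for the other pairs. Ptprc, which encodes the sorting marker CD45, had 1579.8, 883, 833 and 597 CPM against 582 for isotype. Levels are given in CPM, the UMIs of a gene scaled to the total UMIs of a library or of a cluster within it.

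Promoter sequence is shown for 3 of the genes whose levels differed most between clusters or libraries below: Klf2, Lef1 and Igfbp4. The letters come from the RefSeq promoter table for build GRCm38.p6, which had entries for 6 of the 7 genes (S1pr1 was the exception), and they run 5′ to 3′ on the gene's strand.
Klf2 promoter, chr8:72318812-72319032, + strand: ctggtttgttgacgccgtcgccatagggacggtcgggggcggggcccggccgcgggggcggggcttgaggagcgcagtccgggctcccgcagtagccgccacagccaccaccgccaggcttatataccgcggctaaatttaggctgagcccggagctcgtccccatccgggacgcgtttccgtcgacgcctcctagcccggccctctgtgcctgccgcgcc
Lef1 promoter, chr3:131110047-131110296, + strand: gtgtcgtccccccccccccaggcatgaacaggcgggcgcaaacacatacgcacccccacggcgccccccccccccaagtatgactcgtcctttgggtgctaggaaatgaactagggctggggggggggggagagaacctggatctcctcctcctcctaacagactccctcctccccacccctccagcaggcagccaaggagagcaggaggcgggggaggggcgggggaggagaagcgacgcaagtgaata
Igfbp4 promoter, chr11:99041185-99041214, + strand: gacggcgctggGGGTGTGGccagggggccg
Capitals in Igfbp4 mark GGGTGTGG, the other-strand reading of the KLF site CCACACCC, 48 to 41 bases before the start of that entry, which lies inside the span RefSeq gives for the gene. The Klf2 and Lef1 windows end where the first RefSeq or GENCODE base of the gene begins, and they held none of the letters searched.

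Motifs were searched on both strands in the 250 bases before the start of the first entry listed for each gene (Lef1 and Tcf7 have more than 1 entry). All 250 bases of the Tcf7, Bach2 and Igfbp4 windows lay inside the span RefSeq gives for the gene, as did 65 bases of the Il7r window. These windows are therefore not all upstream of the gene. The KLF site was found in 1 of the 6 windows (Igfbp4) and in 3.19% of the same window of all 27025 genes in the table. GTAAACA (FOXO), CTTTGAT (TCF and LEF), TGACTCA (AP-1) and TGTGGTT (RUNX) were in 0 of the 6 windows and in 3.09%, 3.23%, 4.43% and 4.46% of all windows. A match describes letters only, and no match says only that those letters are not in the window.

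In build GRCm38.p6 Klf2 spans bases 72319062 to 72321654 of chromosome 8, S1pr1 spans bases 115710433 to 115715055 of chromosome 3, Tcf7 spans bases 52246527 to 52283383 of chromosome 11, Lef1 spans bases 131110297 to 131224357 of chromosome 3, Il7r spans bases 9506159 to 9529941 of chromosome 15, Bach2 spans bases 32238413 to 32586109 of chromosome 4 and Igfbp4 bases 99040005 to 99052655 of chromosome 11, per RefSeq. Tcf7 and Igfbp4 share chromosome 11, and S1pr1 and Lef1 share chromosome 3.

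Over the authors' clusters the 7 genes followed different patterns. Clusters were named from marker lists: 0 CD4 T-like, 1 T-like, 2 and 11 thymocyte-like, 4 regulatory T-like, 5 cycling-like, 6 gamma-delta or type 17 T-like, 7 macrophage-like, 8 natural killer-like, 10 innate lymphoid type 2-like, 14 B-like and 16 conventional dendritic-like. Cluster 0 rests on 5 of 8 CD4 T cell markers at 1.5-fold or more, with none among its 10 leading genes, and had 0 of 8 CD8 T cell markers at that level. Clusters 2, 4 and 13 also had 5 of the CD4 markers and cluster 1 had 7, so the name of cluster 0 is a loose one. In ICI 2 and ICI 3 its summed CD8 T cell markers were higher than in the other libraries, as given below. Clusters 3, 9, 12, 13 and 15 are given by number. The genes took part in the authors' clustering, so differences between clusters are a description without a test, over libraries with at least 20 cells in the cluster.

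**Figure D1:**
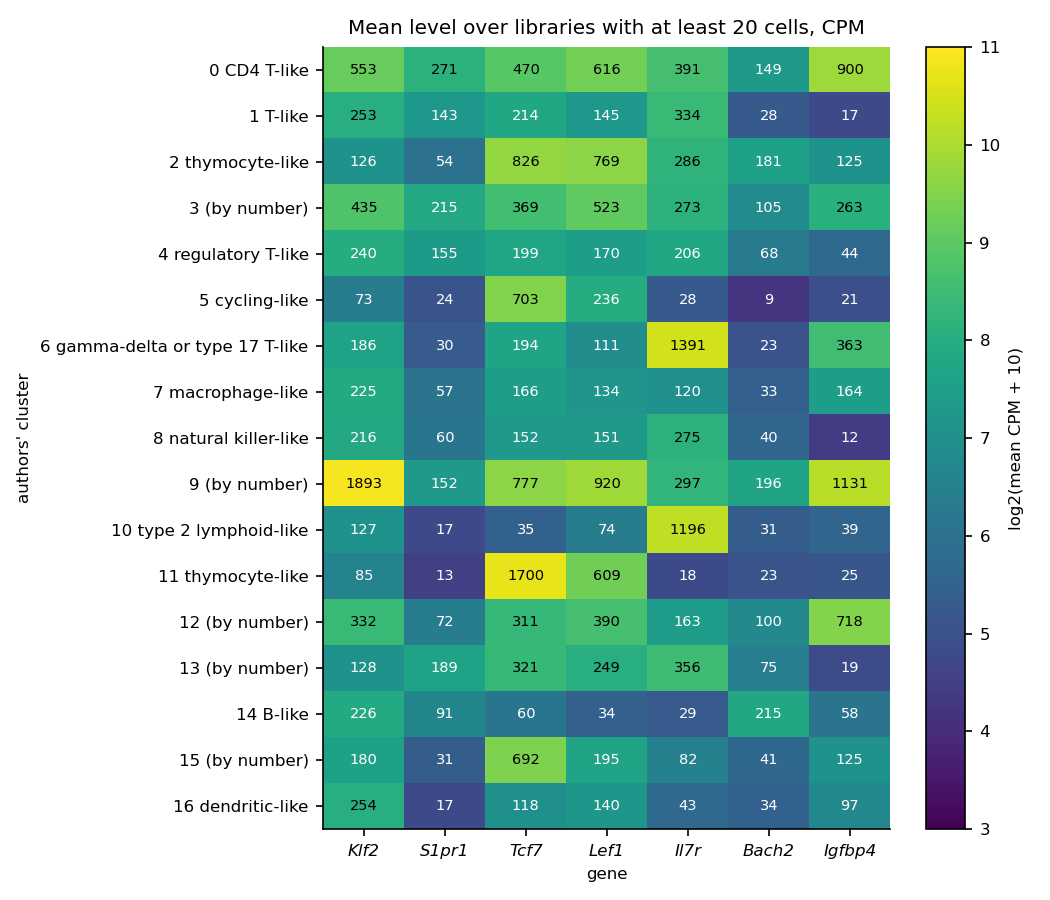
Mean level of each of the 7 genes (columns) in each of the authors' 17 clusters (rows) as log2(mean CPM + 10), each cell carrying the mean in CPM over libraries with at least 20 cells. Tcf7 is highest in cluster 11 at 1700.1 CPM, Il7r in clusters 6 and 10 at 1391 and 1196 CPM, and Klf2 in cluster 9 at 1893 CPM.

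The transcription factors Tcf7 and Lef1 had high levels in the thymocyte-like clusters, in CD4 T-like cluster 0 and in cluster 9, and lower ones in T-like clusters 1, 4 and 6. Tcf7 reached 1700.1 ± 45.9 CPM (SD, n = 3) in thymocyte-like cluster 11 and 826 ± 557 CPM (SD, n = 5) in thymocyte-like cluster 2. In cycling-like cluster 5 Tcf7 had 703 ± 453 CPM (SD, n = 4) and in cluster 15 692 CPM (n = 1). These levels were above the 470 ± 260 CPM (SD, n = 5) of cluster 0. The lowest mean of Tcf7 was 35.2 ± 31.1 CPM (SD, n = 5) in innate lymphoid type 2-like cluster 10. The step from cluster 11 to cluster 2 exceeded the spread of the difference over the 3 libraries with both. The means of Lef1 were 920.5 ± 13.8 CPM (SD, n = 2) in cluster 9, 769 ± 652 CPM (SD, n = 5) in cluster 2 and 616 ± 474 CPM (SD, n = 5) in cluster 0. In ICI 4 and isotype, the 2 libraries that hold cluster 9, cluster 2 was above it at 1335 and 1208 CPM against 911 and 930.3 CPM, and cluster 2 was the highest for Lef1 in ICI 1, ICI 4 and isotype. Lef1 in cluster 11 was 609 ± 93.6 CPM (SD, n = 3), so that cluster 2 and cluster 11 stood in the opposite order for Lef1 and for Tcf7. Of neighbouring steps that could be compared in at least 2 libraries, 4 of 12 for Tcf7 and 7 of 13 for Lef1 exceeded their spread. Among these, 1 for Tcf7 and 3 for Lef1 ran against the order of the means, which cover different libraries.

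Klf2, the recirculation factor, and Bach2, the repressor of effector genes, had their own orders. Klf2 was highest in cluster 9, with 2497 and 1288 CPM in ICI 4 and isotype, where that cluster held 422 and 26 cells. Cluster 9 was led by the heat shock genes Hspa1a and Hspa1b and by the immediate early gene Jun, with Klf2 and Igfbp4 also among its 10 leading genes. ICI 1 to 3 had 2 cells each in it. After cluster 9 came cluster 0 at 553 ± 538 CPM (SD, n = 5) and cluster 3 at 435 ± 244 CPM (SD, n = 5), and cycling-like cluster 5 was lowest at 72.6 ± 51.2 CPM (SD, n = 4). The means of Bach2 were 215 ± 26.8 CPM (SD, n = 2) in B-like cluster 14, 196 ± 26.4 CPM (SD, n = 2) in cluster 9, 181 ± 152 CPM (SD, n = 5) in cluster 2 and 149 ± 133 CPM (SD, n = 5) in cluster 0. In ICI 1 and ICI 4, which hold cluster 14, cluster 2 was above it, at 354 and 301 CPM against 234 and 196 CPM. Its lowest mean was 8.57 ± 5.75 CPM (SD, n = 4) in cluster 5. For Klf2 4 of 14 neighbouring steps exceeded their spread, and for Bach2 3 of 12, with 1 of each against the order of the means.

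The receptors S1pr1 and Il7r were highest in different cells. S1pr1 had its highest mean in cluster 0, at 271 ± 133 CPM (SD, n = 5), then 215 ± 57.2 CPM (SD, n = 5) in cluster 3, and its lowest in cluster 11, at 12.7 ± 11.1 CPM (SD, n = 3). Within ICI 1, ICI 4 and isotype cluster 0 was the highest cluster for S1pr1, in ICI 2 it was cluster 3 and in ICI 3 cluster 13. Il7r was highest in gamma-delta or type 17 T-like cluster 6, at 1391 ± 449 CPM (SD, n = 5), and next in cluster 10, at 1196 ± 330.2 CPM (SD, n = 5). Cluster 6 was above cluster 10 in 5 of 5 libraries, and cluster 10 above CD4 T-like cluster 0 (391 ± 68.3 CPM (SD, n = 5)) in 5 of 5. Il7r was lowest in thymocyte-like cluster 11, at 18.1 ± 24.03 CPM (SD, n = 3), where Tcf7 was highest. Steps beyond their spread were 1 of 14 for S1pr1 and 3 of 13 for Il7r.

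Igfbp4 was concentrated in a few clusters and differed widely between libraries. It averaged 1131 ± 732 CPM (SD, n = 2) in cluster 9, 900.2 ± 958 CPM (SD, n = 5) in cluster 0, 718 ± 410.1 CPM (SD, n = 3) in cluster 12 and 363 ± 497 CPM (SD, n = 5) in cluster 6. In both libraries with cluster 9 cluster 0 was above it, at 2207 and 703 CPM against 1648 and 613 CPM in ICI 4 and isotype. None of its 13 neighbouring steps exceeded its spread. Cluster 0 held 77.9% of the Igfbp4 UMIs of ICI 1 and 43.6% of those of ICI 4, from 20.7% and 17.6% of the cells. In the isotype library the largest share, 23.9%, lay in cluster 12, followed by 23.3% in macrophage-like cluster 7 and 20.4% in cluster 6. Most of the cluster 6 UMIs lay in cells that also held stromal or thyroid transcripts, as described below. Without those cells they went from 402 to 6 in isotype and from 297 to 37 in ICI 4.

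Treatment was compared first over all cells of each library, with counts summed per library and tested by edgeR's quasi-likelihood test with Benjamini-Hochberg adjustment. None of the 7 genes passed an adjusted p of 0.05, as was so for all 12659 genes tested (0.0% called). At an unadjusted p under 0.05 there were 516 genes, and DESeq2 called 38. In these sums a smaller number of cells of a type and less RNA per cell cannot be told apart.

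Over all cells S1pr1 and Il7r lay above isotype in all 4 ICI libraries. With the 9 clusters of at least 20 cells in every library weighted by isotype cell shares, as given below, S1pr1 in ICI 3 lay below isotype. S1pr1, the exit receptor, had 149, 80.1, 69.2 and 132 CPM in ICI 1 to 4 and 47.5 CPM in the isotype library. Its log2 fold change of ICI over isotype was 1.08 (SE 0.53, adjusted p = 0.817). Il7r had 399, 528, 515 and 226 CPM in ICI 1 to 4 and 206 CPM in the isotype library, a log2 fold change of 0.90 (SE 0.52, adjusted p = 0.817). The higher Il7r values were those of ICI 2 and ICI 3. Of all genes tested 27.3% lay above isotype in every ICI library, beside 2 of the 7 here.

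Tcf7 lay below isotype in all 4 ICI libraries, with 369, 89.2, 84.9 and 648 CPM in ICI 1 to 4 and 691 CPM in the isotype library. The log2 fold change was -1.29 (SE 1.14, adjusted p = 0.817), and ICI 4 was close to isotype. Of all genes 19.1% lay below isotype in every ICI library, beside 1 of the 7. For the remaining 4 genes the ICI libraries lay on both sides of isotype.

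Klf2 had 143, 108, 80.1 and 522 CPM in ICI 1 to 4 and 340.1 CPM in the isotype library, with ICI 4 alone above isotype and a log2 fold change of -0.73 (SE 1.08, adjusted p = 0.848). Lef1 had 381, 57.8, 56.6 and 497 CPM in ICI 1 to 4 and 455 CPM in the isotype library, again with ICI 4 alone above, and a log2 fold change of -0.96 (SE 1.27, adjusted p = 0.834). Bach2 had 85.3, 8.81, 7.99 and 112 CPM in ICI 1 to 4 and 73.2 CPM in the isotype library, and Igfbp4 had 383, 11.9, 9.36 and 546 CPM in ICI 1 to 4 and 243 CPM in the isotype library. For both, ICI 1 and ICI 4 lay above isotype and ICI 2 and ICI 3 far below, with log2 fold changes of -0.52 (SE 1.49, adjusted p = 0.918) and -0.11 (SE 2.16, adjusted p = 0.99).

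Several of these fold changes rested on single libraries. Without ICI 4 the log2 fold changes over all cells were -1.77 for Klf2, -2.09 for Tcf7, -1.63 for Lef1, -1.26 for Bach2 and -1.03 for Igfbp4. None of these passed the threshold. Without both ICI 2 and ICI 3 Bach2 and Igfbp4 turned to 0.35 and 0.86.

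**Figure D2:**
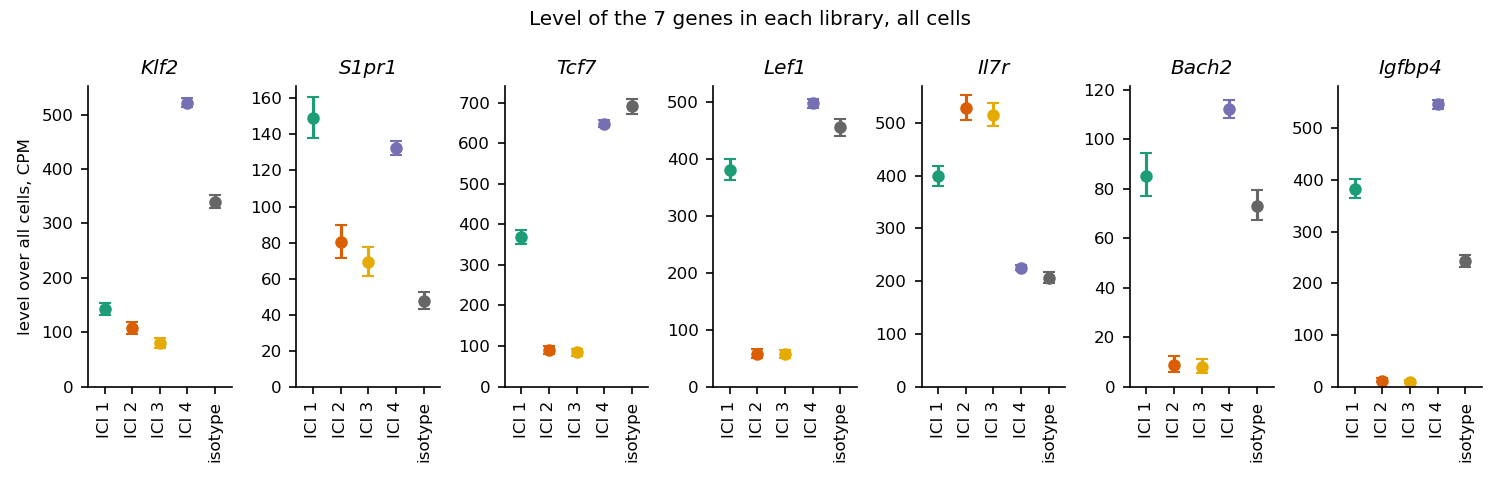
Level of each gene over all cells (CPM, axes from 0, 1 panel a gene) in ICI 1 to 4 and the isotype library, with exact 95% Poisson intervals that cover counting error only. ICI 2 and ICI 3 are the lowest libraries for Klf2, Tcf7, Lef1, Bach2 and Igfbp4 and the highest for Il7r.

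The share of cells with a UMI was compared with every cell thinned, that is reduced at random to 1000 UMIs. Shallower cells were dropped, 596 of 8923 from ICI and 21 of 1352 from isotype. Il7r was seen in 27.1, 30.4, 27.8 and 21.5% of cells in ICI 1 to 4 and 18.6% in isotype, a difference of means of 8.15 percentage points. S1pr1 was seen in 17.1, 7.16, 6.77 and 15.99% against 4.36%, and Tcf7 in 27.6, 8.23, 7.57 and 40.2% against 42.7%. The exact two-sided permutation p over the 5 libraries was 0.2 for Il7r, the smallest that 4 libraries against 1 allow, and 0.4 for S1pr1 and for Tcf7. No value passed, and adjusted over the 7 comparisons the lowest was 0.933. These p-values depended on the random draw: in a second draw S1pr1 and Tcf7 both came to 0.2 and the lowest adjusted value to 0.467, while the mean over all draws gave 0.4 for both again. Unthinned shares were 43.9% (ICI mean) against 37.1% for Il7r and 39.6% against 69.3% for Tcf7.

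Macrophage-like cells, which are not known for T cell factors, also held some of these transcripts. In cluster 7 Tcf7 was seen in 5.15, 0, 0 and 15.6% of thinned cells in ICI 1 to 4 and 29.5% in isotype, and Lef1 in 1.03, 0, 0 and 17.8% and 24.03%. Klf2, Igfbp4, Il7r, S1pr1 and Bach2 had 25.6, 18.6, 13.2, 1.55 and 3.10% there in isotype. The median depth of these cells was 3403, 3403, 3472 and 8726 UMIs for ICI 1 to 4 and 9932 for isotype. The shares of Tcf7 over all cells of ICI 4 and isotype stand beside cluster 7 shares of 15.6 to 29.5%.

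The clusters that supplied Il7r differed between libraries. Cluster 6 gave 55.2% and 62.4% of the Il7r UMIs of ICI 2 and ICI 3, from 19.4% and 21.2% of their cells. In ICI 1, ICI 4 and isotype it gave 20.6%, 6.04% and 21.6%, from 4.01%, 1.24% and 4.96% of cells. Tcf7 UMIs came first from cycling-like cluster 5 in ICI 4 and isotype, at 44.6% and 35.3%, a cluster with 7 of 10 thymocyte markers at 1.5-fold or more. In ICI 2 and ICI 3 the leading source of Tcf7 was cluster 1, at 33.1% and 33.1%.

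Within CD4 T-like cluster 0 the ICI libraries differed strongly from each other. Igfbp4 had 1534, 32.1, 24.5 and 2207 CPM in ICI 1 to 4 and 703 CPM in the isotype library. Lef1 had 922, 88.2, 117 and 1075 CPM against 878 for isotype, Tcf7 612, 211, 164 and 702 CPM against 662 and Bach2 161, 16.03, 10.9 and 286 CPM against 273, each with ICI 2 and ICI 3 lowest. Klf2 had 233, 189.7, 76.4 and 1239 CPM against 1028, with ICI 1 also far below isotype. S1pr1 had 369, 168, 125 and 439.9 CPM against 252. Il7r, in contrast, had 394, 411, 292 and 482 CPM against 377 and differed least between libraries. No member was above isotype in all ICI libraries of cluster 0 and none below in all, where 26.3% of 7655 genes lay above and 20.8% below in every ICI library.

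No gene was called in cluster 0 (0.0% of 7655 by edgeR's quasi-likelihood test with Benjamini-Hochberg adjustment). There were 287 genes at an unadjusted p under 0.05. The log2 fold changes were -1.25 (SE 1.23, adjusted p = 0.864) for Klf2 and 0.41 (SE 2.11, adjusted p = 0.983) for Igfbp4. Tcf7, Lef1, Bach2 and S1pr1 had -0.69, -0.70, -1.16 and 0.09, all with an adjusted p above 0.05. For Il7r the log2 fold change was -0.00023 (SE 0.38).

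Genes of recirculation and of residency varied over the same libraries of cluster 0. Ccr7, the node-homing chemokine receptor, had 752, 53.4, 123 and 1683 CPM against 1741 for isotype. Satb1, a chromatin organiser of T cells and partner of TCF1, had 611, 64.1, 43.6 and 1015 CPM against 1302. Cxcr6, a chemokine receptor of tissue T cells, had 72.00, 1603, 1685 and 0.862 CPM against 4.16, and S100a4, a calcium-binding protein of effector and memory cells, had 8.13, 593, 731 and 0.287 CPM against 6.24. Id2, an inhibitor of E proteins found in effector cells, had 196, 831, 818 and 117 CPM against 58.2. ICI 2 and ICI 3 were lowest for Ccr7 and Satb1 and highest for Cxcr6, S100a4 and Id2, the reverse of the order for Igfbp4 and Lef1. Cd69, which blocks S1pr1 at the cell surface, had 130.1, 131, 166 and 166 CPM against 127. The summed CD8 T cell markers (8 genes, Ccl5 among them) were 122, 2517, 3283 and 87.3 CPM in ICI 1 to 4 and 362 CPM in isotype, and Ccl5 alone 25.5, 1023, 1573 and 2.58 CPM against 74.9. Their part in these differences was not tested.

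Single cells of cluster 0 differed in how many of the 7 genes they showed. After thinning to 1000 UMIs a cell held a UMI of 2.60, 0.856, 0.612 and 3.24 of the genes on average in ICI 1 to 4 and 2.64 in isotype. At least 3 of the genes were seen in 53.7, 7.58, 6.80 and 71.5% of cells in ICI 1 to 4 and in 57.98% in isotype (exact 95% interval 48.6 to 66.97%). No gene of the set was seen in 47.7% and 60.2% of the cells of ICI 2 and ICI 3, against 5.96%, 1.13% and 4.20% for ICI 1, ICI 4 and isotype. The median depth of cluster 0 cells was 2709, 2687, 3252 and 3751 UMIs for ICI 1 to 4 and 3506 for isotype. The thinned cells numbered 285, 132, 103 and 883 in ICI 1 to 4 and 119 in isotype.

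**Figure D3:**
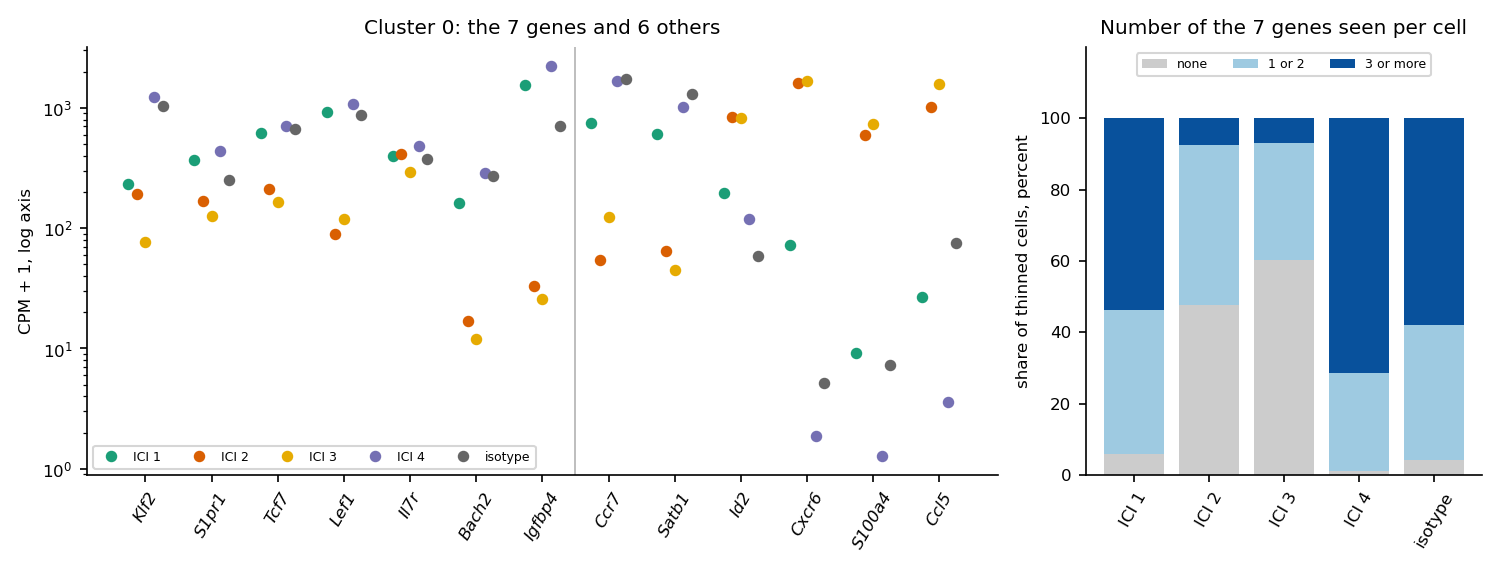
Left, level in cluster 0 (CPM + 1, log axis) of the 7 genes and of 6 other genes in each library. Right, share of thinned cells (percent) by how many of the 7 genes they showed. ICI 2 and ICI 3 lie below the other libraries for Igfbp4, Lef1, Tcf7 and Bach2 and have 7.58% and 6.80% of cells with at least 3 of the genes.

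Pairs of the 7 genes in single cells of cluster 0 were compared with the product of their separate shares. In the 883 thinned cells of ICI 4 the ratio of cells with both genes to the product of the shares ran from 0.900 to 1.16 over the 21 pairs. Klf2 and S1pr1, its target, were seen together in 221 cells against 212 from the product, and Tcf7 and Lef1 in 249 cells against 245. Klf2 and S1pr1 came to 23 cells against 18.0 in ICI 1, 12 against 3.03 in ICI 2 and 13 against 11.3 in isotype. Over 21 pairs the ratio ran from 0.841 to 1.44 in the 285 cells of ICI 1 and from 0.541 to 1.93 in the 119 of isotype, and over the 6 pairs of ICI 2 with at least 10 cells for each gene from 1.07 to 3.96. ICI 3 had 1 such pair, at 2.10. In ICI 4 the highest ratio was that of Il7r with Igfbp4 and the lowest that of Il7r with Bach2. These are sparse UMIs of cells within a library and are given as a description.

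Klf2 kept its library pattern beyond cluster 0. In the 9 clusters with at least 20 cells in every library, the highest Klf2 level was that of ICI 4 in 5 and of isotype in 4. ICI 4 and isotype are also the libraries set apart from the others by sample number. The part of that split in the Klf2 levels was not tested. In T-like cluster 1, led by Gzmk, Ccl5 and Ifng, Klf2 had 106, 138, 94.5 and 494 CPM against 435 for isotype, and in regulatory T-like cluster 4 118, 183, 168 and 442 CPM against 288. Macrophage-like cluster 7 had 190.4, 98.2, 104 and 323 CPM against 411, and natural killer-like cluster 8 had 116, 84.6, 72.9 and 310.0 CPM against 499. Clusters were then weighted by their share of the isotype cells, with the same weights for every library. On that weighting the mean over the 9 clusters was 159.6, 123, 73.4 and 436 CPM in ICI 1 to 4 and 405 CPM in isotype. The same mean of Il7r was 608, 493, 478 and 428 CPM against 376 CPM, a narrower range than over all cells. That of S1pr1 was 132, 85.6, 67.8 and 119 CPM against 72.3 CPM, with ICI 3 below isotype, unlike over all cells. Tcf7 had 454, 94.9, 173 and 573 CPM against 677 CPM on this weighting, below isotype in every ICI library.

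**Figure D4:**
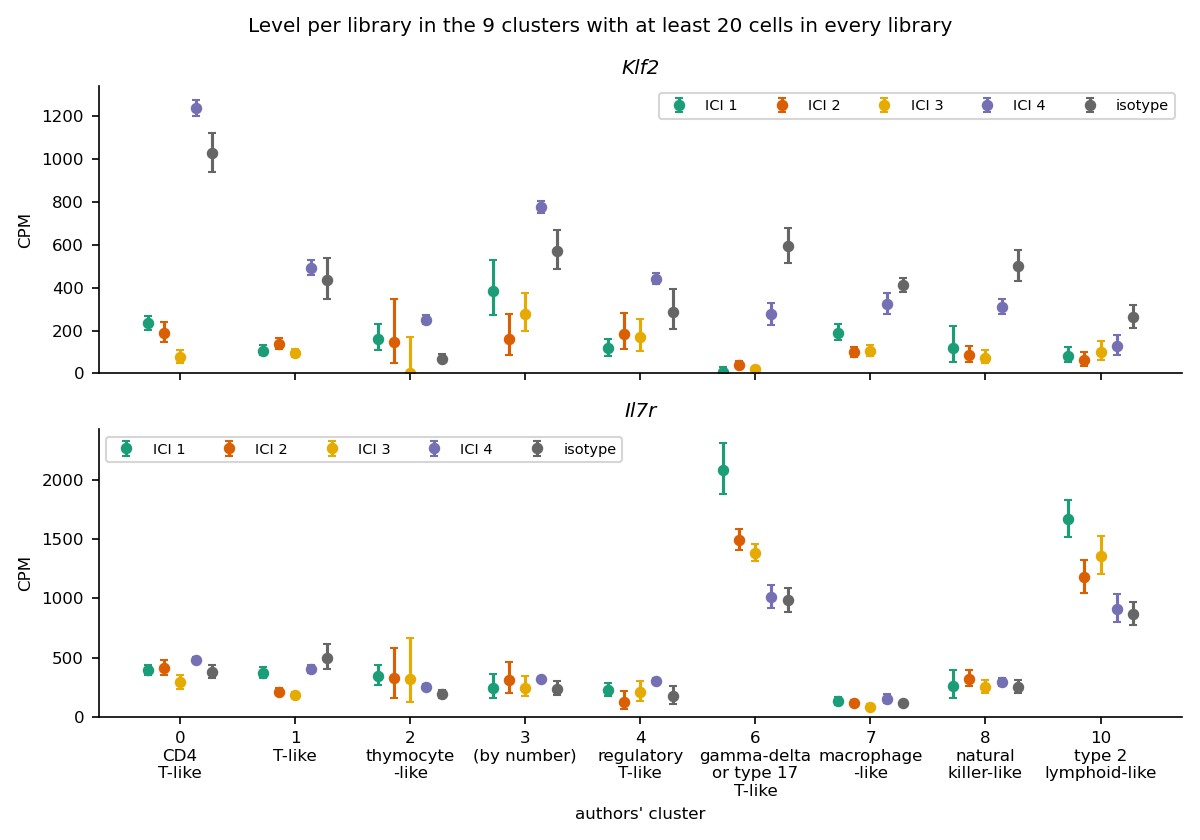
Level of Klf2 (top) and Il7r (bottom) in CPM in each library, in the 9 clusters with at least 20 cells in every library, with exact 95% Poisson intervals that cover counting error only. For Klf2 ICI 4 or isotype is the highest library in each cluster, and for Il7r clusters 6 and 10 stand above the other 7 in every library.

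Cluster 6, the gamma-delta or type 17 T-like cells in which Il7r was highest, also differed between libraries in Klf2 and Igfbp4. Il7r there had 2085, 1495, 1385 and 1009 CPM in ICI 1 to 4 and 983 CPM in the isotype library, above isotype in every ICI library, as were 29.7% of 7887 genes. Klf2 had 5.73, 39.9, 18.7 and 275 CPM against 593, below isotype in every ICI library, as were 19.3% of genes. Lef1 and Igfbp4 also lay below, with 57.3, 51.8, 49.2 and 195 CPM against 203 and 40.1, 3.99, 2.95 and 681 CPM against 1088. None of the 7 genes passed (0.0% called, 572 genes at an unadjusted p under 0.05), and the log2 fold changes by edgeR were -2.88 (SE 1.46, adjusted p = 0.687) for Klf2, -2.65 (SE 2.24, adjusted p = 0.743) for Igfbp4 and 0.39 (SE 0.34, adjusted p = 0.754) for Il7r.

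Fibroblast transcripts moved with Igfbp4 and Klf2 in this cluster. The 8 fibroblast markers summed to 5.73, 2.66, 0 and 3977 CPM in ICI 1 to 4 and 6781 CPM in isotype, with 7, 7, 8, 0 and 0 of the 8 at 0. The 10 gamma-delta and type 17 markers summed to 8895, 9440.0, 8821 and 2309.5 CPM against 2734. Cells with at least 2 stromal or thyroid UMIs numbered 2, 3, 5 and 13 of 61, 237, 247 and 62 cells in ICI 1 to 4 and 23 of 67 in isotype. Without them Igfbp4 had 41.6, 4.05, 3.02 and 131 CPM in ICI 1 to 4 and 34.2 CPM in isotype, and Klf2 had 5.94, 39.1, 18.1 and 77.6 CPM and 256 CPM. Klf2 remained below isotype in 4 of 4 ICI libraries, while Igfbp4 in ICI 1 and ICI 4 was above it. Il7r without those cells had 1954, 1489, 1386 and 1348 CPM and 1891 CPM, and its log2 fold change turned to -0.45.

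**Figure D5:**
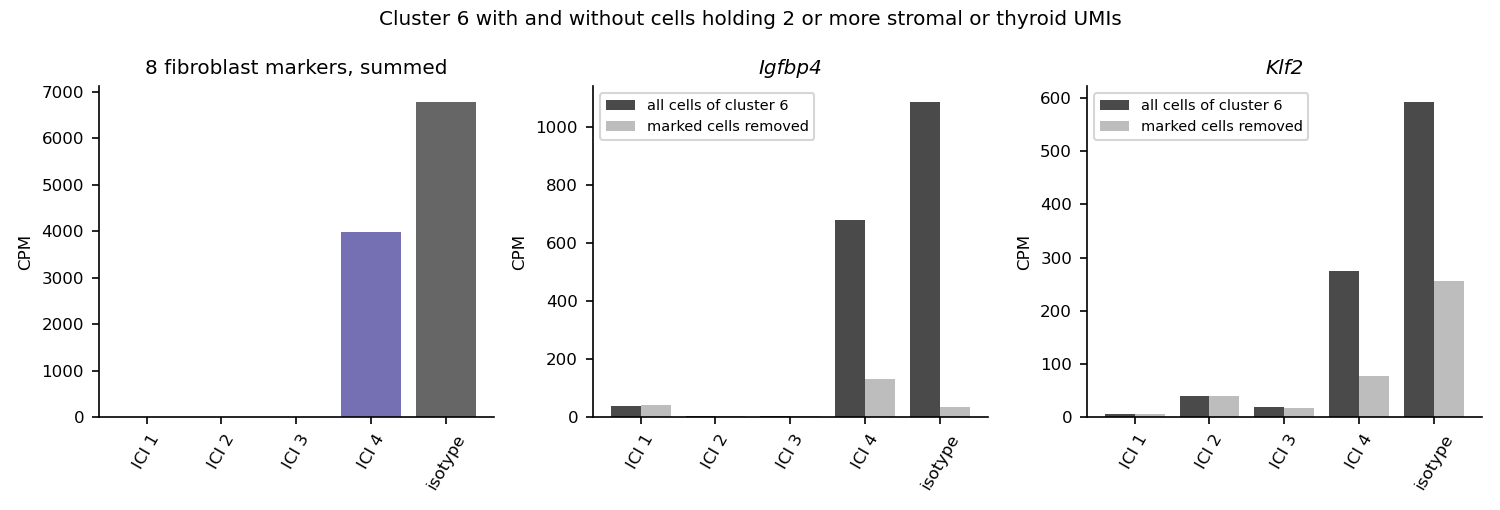
Cluster 6: summed level of 8 fibroblast markers (left) and level of Igfbp4 and Klf2 (CPM, bars from 0) in each library, with all cells (dark) and without cells holding 2 or more stromal or thyroid UMIs (light). The isotype Igfbp4 level goes from 1088 to 34.2 CPM and the isotype Klf2 level from 593 to 256 CPM.

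Leaving out ICI 4 took 9 of the 63 member comparisons past an adjusted p of 0.05, all with lower levels in ICI. By edgeR they were Klf2 in the T-lineage clusters 0, 1, 3, 4, 6 and 9 joined at a log2 fold change of -2.77 (adjusted p = 0.0318), in cluster 1 at -2.17 (adjusted p = 0.038), in cluster 6 at -4.76 (adjusted p = 2.83e-81) and in cluster 10 at -2.12 (adjusted p = 4.11e-06). The others were Tcf7 in cluster 10 at -2.74 (adjusted p = 0.00331), and Tcf7, Lef1, Bach2 and Igfbp4 in cluster 6 at -2.05 (adjusted p = 1.60e-16), -2.23 (adjusted p = 5.92e-15), -4.11 (adjusted p = 0.00354) and -7.50 (adjusted p = 8.14e-139). Several of these values rest on few UMIs. In cluster 6 Bach2 had 0, 0 and 4 UMIs in ICI 1 to 3 against 12 in isotype. Igfbp4 there had 7, 3 and 3 against 402, and Klf2 1, 30 and 19 against 219. Lef1 and Tcf7 there had 10 to 77 UMIs in ICI 1 to 3. In cluster 10 Tcf7 had 6, 3 and 1 UMIs against 27. The cluster 6 values hold the isotype cells with stromal or thyroid UMIs. Without those cells isotype went from 306 to 137 CPM for Tcf7 and from 203 to 114 CPM for Lef1. Igfbp4 went from 1088 to 34.2 CPM and Klf2 from 593 to 256 CPM, while Bach2 had 32.5 and 34.2 CPM. The part of those cells in these calls was not tested. The fits without ICI 4 take their spread from ICI 1 to 3, of which ICI 2 and ICI 3 share barcodes, and many other genes passed in them. In these fits treatment cannot be told apart from the split by sample number, with ICI 1 to 3 on one side and isotype on the other. Of the joined clusters, cluster 9, where Klf2 was highest, held 422 cells in ICI 4, 26 in isotype and 2 each in ICI 1 to 3. Genes called lower in ICI were 2.23% of 10820 in the joined T-lineage clusters, 0.647% of 8805 in cluster 1, 12.5% of 8195 in cluster 6 and 7.47% of 5435 in cluster 10. With ICI 4 in place the joined T-lineage clusters gave 0 calls (0.0% of 11104 genes, 829 at an unadjusted p under 0.05 and 45 by DESeq2). Tcf7 had 404, 122, 109 and 470.1 CPM there against 515 for isotype, below in every ICI library, as were 22.2% of genes. Klf2 there was 162, 117, 76.2 and 1012 CPM in ICI 1 to 4 and 721 CPM in the isotype library, a log2 fold change of -1.08 (SE 1.38, adjusted p = 0.83).

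In innate lymphoid type 2-like cluster 10, cells that respond to interleukin 33 and make type 2 cytokines, Klf2 had 83.1, 61.8, 98.4 and 128 CPM against 262 for isotype. S1pr1 had 14.4, 12.4, 0 and 11.99 CPM against 46.2, on 0 to 18 UMIs a library. Both lay below isotype in every ICI library, as did Tcf7, while 7.01% of 5436 genes did. Il7r had 1665, 1178, 1359 and 911 CPM against 867, above isotype in every ICI library with 28.2% of genes. No gene was called (0.0%, 157 at an unadjusted p under 0.05), and the log2 fold changes by edgeR were -1.74 (SE 0.48, adjusted p = 0.985) for Klf2 and -2.45 (SE 1.01, adjusted p = 0.985) for S1pr1. The fibroblast markers summed to 0, 0, 0 and 7.99 CPM for ICI 1 to 4 and 12.8 CPM for isotype, and the 5 red cell markers to 65.02, 12.4, 0 and 4024 CPM against 13381 CPM. The part of red cell transcripts in these differences was not tested.

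In thymocyte-like clusters 2 and 11, joined, Lef1 was above 1000 CPM in 3 of the 5 libraries and Tcf7 above 800 CPM in 4. Tcf7 had 1078, 141, 812 and 1296 CPM against 1501 for isotype and Lef1 1134, 169, 40.6 and 1193 CPM against 1007, with 22 cells each in ICI 2 and ICI 3. Tcf7 lay below isotype in every ICI library, as did 15.4% of 6228 genes. S1pr1, which developing T cells need in order to leave the thymus, had 93.3, 56.3, 40.6 and 47.6 CPM against 11.9, above isotype in every ICI library, as were Il7r and 12.9% of genes. The S1pr1 values of ICI 2, ICI 3 and isotype rest on 2, 1 and 13 UMIs. The make-up of the set also differed, since cluster 11, where S1pr1 and Il7r were low, held 168 of the 421 isotype cells but 2 and 1 of the 22 in ICI 2 and ICI 3. In cluster 2 alone S1pr1 had 104, 59.2, 45.9 and 53.7 CPM against 9.30 and Il7r 344, 325, 321 and 250.3 CPM against 191. In the joined set the S1pr1 log2 fold change by edgeR was 2.27 (SE 0.87, adjusted p = 0.999). That set called 2 genes (0.0321%), none of them a member.

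The remaining T-like clusters gave no call among the 7 genes either. In T-like cluster 1 Lef1 had 165, 76.8, 64.96 and 175 CPM against 241 for isotype, Tcf7 265, 117, 121 and 225 CPM against 343 and Il7r 371, 213, 184 and 404 CPM against 499. Tcf7, Lef1 and Il7r lay below isotype in every ICI library, as did 19.0% of 9337 genes. No member lay above in every one, as 37.0% of genes did, and 0.0107% were called. In cluster 3, led by Fam241a, Dapl1 and Itgae, Tcf7 had 396, 238, 198 and 380.0 CPM against 633, below isotype in every ICI library with Bach2 and 19.3% of 3761 genes. S1pr1 had 244, 275, 163 and 248 CPM against 146 there, above in every library with Il7r and 18.6% of genes, and 0.0% were called, with 115 at an unadjusted p under 0.05 and 1 by DESeq2. In regulatory T-like cluster 4 Bach2 had 171, 9.17, 7.62 and 123 CPM against 28.8 and no member was above or below isotype in all 4, where 32.1% of 4160 genes lay above, 18.1% below and 0.144% were called. The Bach2 values of ICI 2, ICI 3 and isotype there rest on 1, 1 and 4 UMIs.

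Other genes of the pathways were counted in 6 lists of 12, over all cells, where none was called by edgeR. The median log2 fold change over all 12659 genes was 0.02, and that of the 7 genes -0.52. Of all genes 27.3% lay above and 19.1% below isotype in every ICI library, the shares against which the counts of each list stand. Homing and exit receptors had a median log2 fold change 0.95, 6 above and 2 below isotype in every ICI library. Among them the integrin chains Itga4, Itgb7 and Itgb2, used in adhesion to vessels, had 526, 369, 341 and 119 CPM against 79.6, 371, 443, 390.2 and 161 CPM against 118 and 402, 518, 484 and 219 CPM against 201 for isotype. Ccr7, of the same list, had 298, 32.9, 21.00 and 859 CPM against 399, with ICI 2 and ICI 3 lowest.

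Retention and residency genes had a median log2 fold change 0.81, 4 above and 1 below isotype in every ICI library (27.3% and 19.1% of all genes). Cxcr6 had 557, 1666, 1769.7 and 56.4 CPM against 97.8, and Crip1, a small LIM protein of memory T cells, 905, 1209, 1419.5 and 1174 CPM against 1763. FOXO factors and regulators had a median log2 fold change -0.43, 0 above and 4 below isotype in every ICI library, with Foxp1, a keeper of T cell quiescence, at 260.0, 112, 108 and 231 CPM against 192. Partners and cofactors of TCF1 and LEF1 had a median log2 fold change -0.09, 2 above and 3 below isotype in every ICI library. Satb1 had 353, 45.9, 43.4 and 637 CPM against 731 and Id2 363, 717, 682 and 117 CPM against 138, an opposite order of libraries within that list.

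Signalling from the interleukin 7 receptor had a median log2 fold change -0.52, 4 above and 4 below isotype in every ICI library (27.3% and 19.1% of all genes). Il2rg, the common chain that pairs with the Il7r chain, had 749, 678, 664 and 524 CPM against 495, and the kinase Jak1 had 362, 404, 386 and 336 CPM against 304, both with smaller library differences than Il7r. Mcl1, a survival protein, had 176, 155, 143 and 469.7 CPM against 545. The factors opposed to Bach2 had a median log2 fold change -0.32, 1 above and 5 below isotype in every ICI library. The AP-1 subunits Junb and Jund had 358, 1014, 921 and 1011 CPM against 1318 and 275, 353, 319 and 726 CPM against 1057.

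Genes with the most similar pattern over clusters were ranked by Pearson r over the 17 clusters on log2(CPM + 10), among 7164 genes with at least 50 CPM in a cluster. The points share libraries and depth, and r is a description. For Tcf7 these were Nsg2 (0.96), Frat2 (0.92) and Sec63 (0.92), and for Lef1 Lef1os1 (0.90), Nsg2 (0.87) and Pde4d (0.87). Lef1os1 is transcribed antisense to Lef1, and the sources used here do not state whether the counting used strand. S1pr1 was most like Ms4a6b (0.92), Rflnb (0.92) and Zbp1 (0.90), and Klf2 like Xaf1 (0.82), Klhdc2 (0.76) and A930005H10Rik (0.74). For Il7r they were Ddrgk1 (0.93), Rarg (0.88) and St6galnac2 (0.86), for Bach2 Foxp1 (0.90), Ccr7 (0.81) and Rasa3 (0.81), and for Igfbp4 Utp14a (0.73), Wdr46 (0.72) and Gpr146 (0.71). Among the 7 genes themselves r was highest for Tcf7 with Lef1 at 0.84 and for Klf2 with Igfbp4 at 0.73. Klf2 with its target S1pr1 had 0.60, and Il7r with Tcf7 had the lowest value, -0.29.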

How the data were processed

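Single-cell 5′ RNA sequencing (10x Genomics) was done on thyroid CD45+ cells, per the labels. The deposited table holds raw UMI counts per gene and cell. Cell Ranger and Seurat were run with mouse build mm10, per the submitters' processing notes. Versions, filters and doublet treatment are not given in the sources used here. The authors' deposited cell table gives clusters and library names, and its mitochondrial percent values were not used.

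The 7 genes, the marker and pathway lists and the tests were chosen with earlier results of these data known. All 7 are named whatever their result, with the 3 genes most like each and up to 4 genes of each list by mean CPM, plus Ccr7 and Cd69; 1 further gene named by this rule is not reported here. Clusters were named from marker lists by their genes among the 10 leading genes or at 1.5-fold or more over other cells. For each library UMIs were added up over all its cells, and likewise in 8 sets of clusters with at least 20 cells a library. edgeR 4.0.16 (R 4.3.3) tested these sums with its quasi-likelihood test, after TMM scaling and a filterByExpr minimum of 10 counts, with Benjamini-Hochberg adjustment over all genes tested and a threshold of 0.05. The script was tested on simulated data. With 1 isotype library the model assumes that isotype varies as the ICI libraries do. Alternatives were DESeq2 1.42.0, RLE scaling, no filter on low counts, leaving out the ICI libraries singly, adding up ICI 1 to 3, the highest cell left out, cells with stromal or thyroid UMIs removed, shared barcodes reduced, and cells with a Cd3 UMI only. Added after seeing the data were ICI 2 and ICI 3 summed or left out and other draws of the thinning. Shares used cells thinned to 1000 UMIs, with an exact two-sided permutation over libraries. Intervals at 95% are exact Poisson or Clopper-Pearson and cover counting error only. Depth per library was 4430929, 3858251, 4380351, 32296759 (ICI 1 to 4) and 8130081 UMIs (isotype).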

Additional observations from a re-analysis of the deposited data

Results flagged for a closer look

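Of 63 groups of 4 ICI libraries (7 genes in 9 sets of cells), 10 had a library set apart from the other 3 by more than the 95% critical value of Dixon's test, and chance sets about 1 in 20 groups apart where libraries and groups are independent. Here ICI 2 and ICI 3 share barcodes and the joined sets hold the single clusters, so that rate does not apply as it stands. ICI 4 was the high library for Klf2 in 5 of them, at 522 CPM over all cells, 1012 CPM in the joined T-lineage clusters (cluster 9 included), 1239 CPM in cluster 0, 494 CPM in cluster 1 and 275 CPM in cluster 6. In cluster 6 it was also high for Lef1 at 195 CPM, Bach2 at 80.3 CPM and Igfbp4 at 681 CPM, beside the fibroblast transcripts given above. In cluster 10 ICI 4 was low for Igfbp4 at 11.99 CPM and ICI 3 low for S1pr1 at 0 CPM.

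S1pr1 and Il7r had all 4 ICI libraries above isotype in some clusters and all below in others, and neither passed the test in any of them. These differences were not tested. S1pr1 was above isotype in cluster 3 and below it in cluster 10, log2 fold changes that differ by 3.09, and the thymocyte-like clusters differ from cluster 10 by 4.73. Il7r was below isotype in cluster 1 and above it in clusters 3, 6 and 10 and the thymocyte-like clusters, which differ from cluster 1 by 1.12, 1.29, 1.14 and 1.78. Without cells holding stromal or thyroid UMIs Il7r in cluster 6 had 1954, 1489, 1386 and 1348 CPM against 1891, so that 3 of the 4 ICI libraries lay below isotype.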

How the results depend on the processing

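Over 63 member comparisons and 822 refits, 768 kept the direction and 54 did not, and 38 of the comparisons never turned. Over all cells S1pr1 ran from 0.92 to 1.47, Il7r from 0.48 to 1.18, Tcf7 from -2.09 to -0.51 and Klf2 from -1.77 to -0.08 on the log2 scale. The causes of the changes below were not tested. No paired analysis was possible because isotype is a single library and the groups share only the replicate number 1. Only 1 isotype library, pooled mice and the shared barcodes of ICI 2 and ICI 3 limit every comparison, and levels on few UMIs are imprecise.

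Without ICI 2 and ICI 3 the sign turned for Bach2 0.35 in all cells, 0.20 in cluster 1, 0.45 in cluster 6 and 0.16 in cluster 10, Igfbp4 0.86 in all cells and 0.60 in the joined T-lineage clusters, Il7r -0.23 in the joined T-lineage clusters and 0.19 in cluster 0, Lef1 0.12 in the thymocyte-like clusters and 0.16 in cluster 0, S1pr1 0.08 in cluster 1 and 0.17 in cluster 6, Klf2 0.08 in cluster 3. With ICI 1 to 3 summed the sign turned for Igfbp4 0.46 in all cells and 0.25 in the joined T-lineage clusters, Il7r -0.0011 in the joined T-lineage clusters and 0.13 in cluster 0, Lef1 0.01 in the thymocyte-like clusters, S1pr1 0.01 in cluster 6, Bach2 0.20 in cluster 6. Without cells holding stromal or thyroid UMIs the sign turned for Igfbp4 0.30 in all cells and 0.14 in the joined T-lineage clusters, S1pr1 -0.11 in the joined T-lineage clusters and -0.21 in cluster 4, Il7r -0.23 in the joined T-lineage clusters, -0.18 in cluster 4 and -0.45 in cluster 6, Klf2 0.44 in cluster 4, Tcf7 0.08 in cluster 6. With ICI 2 and ICI 3 summed the sign turned for Igfbp4 0.30 in all cells and 0.03 in the joined T-lineage clusters, Il7r 0.07 in cluster 0. With shared barcodes reduced the sign turned for Lef1 0.12 in the thymocyte-like clusters, Il7r 0.003 in cluster 0. With no filter the sign turned for Il7r 0.03 in cluster 0. Without the highest cell the sign turned for Il7r -0.01 in cluster 4. By DESeq2 the sign turned for Igfbp4 -0.09 in cluster 4. With each ICI library left out in turn the sign turned in at least 1 refit, over the range given, for Igfbp4 -1.03 to 0.30 in all cells, -1.54 to 0.03 in the joined T-lineage clusters, -0.45 to 0.82 in cluster 0, -0.16 to 1.90 in cluster 3 and -0.61 to 0.54 in cluster 4, S1pr1 -0.28 to 0.40 in the joined T-lineage clusters and -0.26 to 0.34 in cluster 0, Il7r -0.02 to 0.18 in the joined T-lineage clusters, -0.15 to 0.13 in cluster 0 and -0.12 to 0.36 in cluster 4, Bach2 -0.05 to 0.65 in the thymocyte-like clusters, Lef1 -0.20 to 0.45 in cluster 4.

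Genes called numbered 2 in the thymocyte-like clusters, 1 in cluster 1 and 6 in cluster 4 and 0 in the other sets. The counts that moved by over 1.5 times were by DESeq2 38 in all cells, 45 in the joined T-lineage clusters, 4 in cluster 1, 1 in cluster 3 and 3 in cluster 6, without the highest cell 1 in all cells, 15 in the thymocyte-like clusters, 0 in cluster 1, 0 in cluster 4 and 1 in cluster 10, without cells holding stromal or thyroid UMIs 1 in all cells, 1 in the thymocyte-like clusters, 0 in cluster 1 and 0 in cluster 4, with cells holding a Cd3 UMI only 1 in all cells, without ICI 2 and ICI 3 4 in all cells, 161 in the joined T-lineage clusters, 20 in the thymocyte-like clusters, 8 in cluster 1, 8 in cluster 3 and 29 in cluster 4, with no filter 5 in the joined T-lineage clusters, 47 in the thymocyte-like clusters, 5 in cluster 1, 5 in cluster 3, 80 in cluster 4, 1 in cluster 6 and 3 in cluster 10, with ICI 1 to 3 summed 44 in the thymocyte-like clusters and 40 in cluster 4, with shared barcodes reduced 20 in the thymocyte-like clusters, with ICI 2 and ICI 3 summed 6 in the thymocyte-like clusters and 16 in cluster 4. Leaving out each ICI library in turn gave 0 to 210 in all cells, 0 to 270 in the joined T-lineage clusters, 13 to 83 in the thymocyte-like clusters, 0 to 55 in cluster 0, 1 to 58 in cluster 1, 0 to 64 in cluster 3, 4 to 68 in cluster 4, 0 to 1417 in cluster 6, 0 to 483 in cluster 10, the highest each time without ICI 4. The difference of Bach2 shares was -10.6 percentage points without thinning. With at least 50 cells a library the highest cluster mean was 1240.0 CPM for Lef1 and 283 CPM for Bach2.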
